A study of Homo sapiens with 24 samples.

Results

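The genes SMAD4, CDKN2A, GATA6, RNF43, ARID1A, TGFBR2, KDM6A and MAP2K4, which are altered in pancreatic cancer, were examined for Myc binding in MIA PaCa-2 cells, an established human pancreatic carcinoma line. They were chosen by name, 8 of 20037 protein-coding genes on chromosomes 1 to 22, X and Y, and a gene was counted as marked when a Myc peak reached within 1 kb of either end of its RefSeq span. Myc was mapped by CUT&Tag, in which an antibody directs a transposase to its target so that fragments cut there are sequenced and pile up as peaks. Both libraries used here came from cells carrying MED30, a subunit of the Mediator coactivator complex, under doxycycline control: 1 received no doxycycline and 1 is titled as day 5 of doxycycline, although the shared protocol speaks of 2 days. The series has 24 samples, and 22 of them, IgG control libraries included, were not analysed here, so peaks that IgG would also give were not removed. Whether the inducible line is a clone or a pool is not given in the sources used here. As background on the line, MIA PaCa-2 is known to have lost CDKN2A by homozygous deletion.

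Myc is a transcription factor that binds DNA as a dimer with Max, typically near gene starts and with a preference for the E-box sequence CACGTG. In pancreatic cancer it drives growth and protein synthesis downstream of activated RAS signalling. The 8 genes belong to pathways that restrain such growth or set pancreatic cell identity. TGFBR2 is the type II receptor for TGF-beta, and SMAD4 is the common partner of the SMAD proteins that carry this signal to the nucleus. CDKN2A encodes p16INK4a, an inhibitor of the cyclin D kinases, and from an alternative first exon the p53 activator ARF. RNF43 is a ubiquitin ligase that removes Wnt receptors from the cell surface, and MAP2K4 is a kinase that activates JNK and p38. ARID1A is a DNA-binding subunit of the BAF chromatin remodeller, KDM6A a demethylase of histone H3 lysine 27, and GATA6 a transcription factor of the endoderm and of classical pancreatic tumours.

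None of the 8 genes was marked by a Myc peak. Without doxycycline 0 of 8 were marked, beside 14.4% of all protein-coding genes (2894 of 20037). At day 5 the count was again 0 of 8, beside 27.4% (5486 of 20037). A list of only 8 genes can show 0 at such shares, so these counts alone do not set the genes apart from others. No peak lay anywhere inside the 8 gene spans either, where 17% of all coding genes without doxycycline and 31.6% at day 5 had one in the gene or within 1 kb. Nor did a peak touch any of their 11 annotated promoter windows (250 bases before to 50 after a start), as one did for 13.9% and 27.3% of the 15843 coding genes with such a window. With 1 library per condition there is no replicate, so no test was possible and the values are those of these 2 libraries. A gene without a peak has no site past the peak caller's threshold. CDKN2A is kept in every count of 8, although a gene deleted in these cells could give no peak. On chromosomes 1 to 22, X and Y, the only ones used, the lists held 3472 of 3559 peaks without doxycycline and 6727 of 6953 at day 5. The fewest fragments over a summit were 3 (medians 11 and 12), and the lowest −log10 q was 1.33 in both lists. Weaker binding could go unlisted, and sites with more than 3 fragments could too.

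The promoters of 4 of the genes are shown beside those of 3 other genes, ELAC1, MIB1 and RPS6. These lay under the Myc peak nearest SMAD4, GATA6 and CDKN2A, respectively, in both libraries. Sequences under a peak and under none can thus be compared. Each run is the 250 bases ending just before the annotated start, 5′ to 3′ on the gene's strand, from RefSeq on GRCh38.p14 (the hg38 assembly). Capitals mark the general E-box form CANNTG, which reads the same on both strands and includes CACGTG.
KDM6A, chrX:44872938-44873187, plus strand: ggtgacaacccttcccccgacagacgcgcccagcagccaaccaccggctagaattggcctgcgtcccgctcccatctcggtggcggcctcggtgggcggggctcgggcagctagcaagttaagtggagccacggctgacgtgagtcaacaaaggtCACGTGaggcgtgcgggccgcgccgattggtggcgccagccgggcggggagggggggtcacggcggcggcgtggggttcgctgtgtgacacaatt
ARID1A, chr1:26695765-26696014, plus strand: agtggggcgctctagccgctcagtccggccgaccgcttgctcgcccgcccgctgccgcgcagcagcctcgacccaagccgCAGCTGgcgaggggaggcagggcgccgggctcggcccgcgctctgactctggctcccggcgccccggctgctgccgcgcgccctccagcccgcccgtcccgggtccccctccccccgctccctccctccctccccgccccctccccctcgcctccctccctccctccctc
SMAD4, chr18:51029963-51030212, plus strand: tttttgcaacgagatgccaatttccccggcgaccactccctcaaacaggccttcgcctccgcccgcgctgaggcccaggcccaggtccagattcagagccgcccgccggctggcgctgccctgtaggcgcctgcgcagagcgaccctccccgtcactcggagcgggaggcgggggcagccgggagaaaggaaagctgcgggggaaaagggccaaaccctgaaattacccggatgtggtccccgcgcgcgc
ELAC1, chr18:50967790-50968039, plus strand: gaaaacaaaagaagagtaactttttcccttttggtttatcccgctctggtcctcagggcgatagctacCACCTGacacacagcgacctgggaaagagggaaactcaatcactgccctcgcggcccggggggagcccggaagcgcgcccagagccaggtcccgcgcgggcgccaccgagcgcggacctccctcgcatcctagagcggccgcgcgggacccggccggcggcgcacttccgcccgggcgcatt
GATA6, chr18:22169339-22169588, plus strand: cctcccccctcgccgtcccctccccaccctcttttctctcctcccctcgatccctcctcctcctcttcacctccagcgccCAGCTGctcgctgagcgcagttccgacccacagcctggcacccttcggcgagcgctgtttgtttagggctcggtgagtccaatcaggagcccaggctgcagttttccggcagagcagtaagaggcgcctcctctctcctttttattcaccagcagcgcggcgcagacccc
MIB1, chr18:21740542-21740791, plus strand: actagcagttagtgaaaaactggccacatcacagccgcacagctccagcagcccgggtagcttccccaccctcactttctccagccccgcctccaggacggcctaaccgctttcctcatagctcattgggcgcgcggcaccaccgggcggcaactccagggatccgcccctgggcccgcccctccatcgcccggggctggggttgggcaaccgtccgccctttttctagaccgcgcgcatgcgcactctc
RPS6, chr9:19380237-19380486, minus strand: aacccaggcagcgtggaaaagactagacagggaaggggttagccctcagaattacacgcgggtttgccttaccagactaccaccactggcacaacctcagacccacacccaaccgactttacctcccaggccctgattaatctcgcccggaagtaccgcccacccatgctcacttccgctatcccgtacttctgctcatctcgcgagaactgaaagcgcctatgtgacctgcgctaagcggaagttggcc

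Over the whole window of 300 bases KDM6A was the only one of the 8 genes with CACGTG, the first base of which lies 95 bases before its start. That word was in 8.34% of all 22199 promoter windows, and 23.7% of the windows that held it were under a peak without doxycycline and 39.6% at day 5. The KDM6A window was under none. The looser CANNTG was in 65.1% of all windows and in at least 1 window of CDKN2A, GATA6, RNF43, ARID1A, TGFBR2, KDM6A and MAP2K4, but not in that of SMAD4. Windows under a peak were not short of examples without CACGTG: it was in 16.2% of them without doxycycline and 13.9% at day 5, and the ELAC1, MIB1 and RPS6 windows have none. A match describes the letters only.

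Base composition of the promoters was as varied as the genes. GC content was 78% for ARID1A, 74.7% for MAP2K4, 66.7% for SMAD4 and for GATA6 and 66.3% for KDM6A, all above the median of 62.3% over all windows and of 64% and 65.3% over those under a peak in the respective libraries. CDKN2A has a start for ARF, with 63.3% GC, and a start for p16INK4a, with 69%. RNF43 lay lower, at 54.3% for the outer and 43.7% for the inner start, and the starts of TGFBR2 had 42.3% and 61.7%. Unmarked genes were therefore found on both sides of the median.

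How far each gene lay from Myc was measured from its nearer end to the edge of the nearest peak. Without doxycycline the distances ran from 62.3 kb to 2587 kb with a median of 398 kb, and at day 5 from 3.03 kb to 2587 kb with a median of 87.3 kb. Over all protein-coding genes the medians were 112 kb and 34.4 kb. In each library 6 of the 8 genes lay beyond the median of all genes, and 4 and 3 lay beyond its upper quartile of 412 kb and 170 kb. The day 5 list is longer, which tends to shorten distances, though not for every gene. Cut by rank to 3472 peaks, it gave a median of 273 kb for the 8 genes. The median of all coding genes after this cut is not given here, so the 273 kb has no counterpart to be read against.

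**Figure D1:**
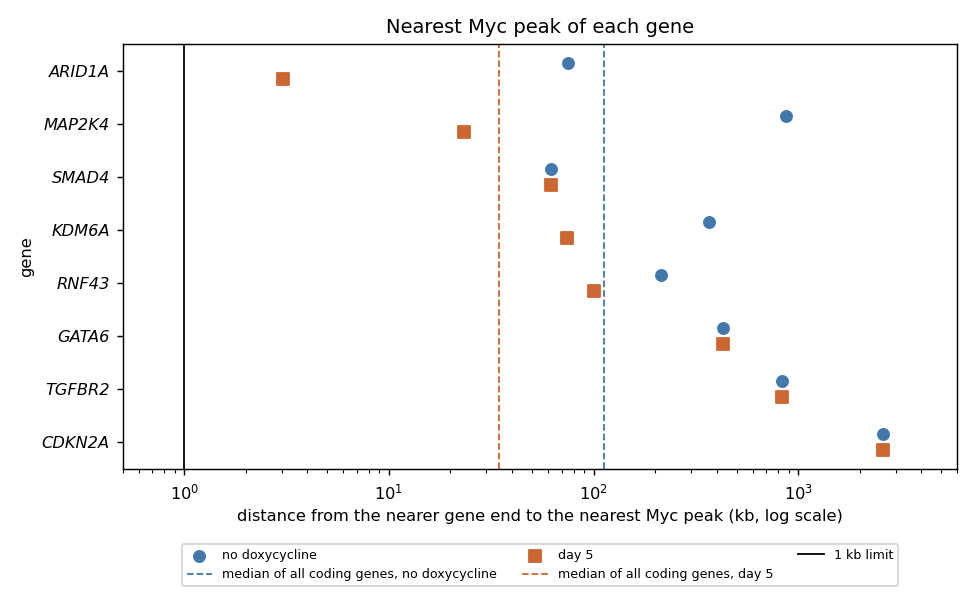
Distance in kb (log axis) from the nearer end of each of the 8 genes to the nearest Myc peak, with circles for the library without doxycycline and squares for day 5; dashed lines are the medians of all protein-coding genes, 112 and 34.4 kb, and the solid line is the 1 kb limit. All 16 points lie to the right of the limit, and ARID1A at day 5, at 3.03 kb, is the nearest to it.

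ARID1A came closest to being marked, and no gene lay inside the limit. Of the windows tried (500 bp, 1 kb, 2500 bp and 10 kb), that of 10 kb marked it, at day 5 and not without doxycycline, beside 36.6% and 20.6% of all coding genes. It spans 26696015 to 26782104 on chromosome 1, and at day 5 a peak at 26692618 to 26692983 ended 3032 bp upstream of its start. That peak had 10 fragments over its summit (exact Poisson 95% interval 4.8 to 18.4, counting error only) and a −log10 q of 2.61, and ranked 6086 of 6727 by this value, which is the authors' own like all −log10 q here. It thus stood 90.5% of the way down its list, and its summit was 752 bp from the far end of LOC124900417, an uncharacterised gene. Without doxycycline the nearest peak lay 74.7 kb upstream, with 12 fragments (6.2 to 21) at rank 1245 of 3472, and at day 5 a peak overlapping this site was again the nearest once the list was cut to 3472 peaks (74.5 kb). Around ARID1A 53 other protein-coding genes lie within 1 Mb, of which 4 were marked without doxycycline and 10 at day 5, among them STMN1, which destabilises microtubules, CEP85 and TENT5B.

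MAP2K4 (chromosome 17, 12020877 to 12143828) had a nearest peak in a different place in each library. At day 5 it lay 23.3 kb upstream, over the promoter of the zinc finger gene ZNF18, with 12 fragments (6.2 to 21) at rank 2258. Without doxycycline no peak was listed there, and the nearest lay 874 kb past the far end at the start of ELAC2, a nuclease that trims the 3′ ends of precursor tRNAs. The ELAC2 peak had 16 fragments (9.15 to 26) at rank 589 without doxycycline and 27 (17.8 to 39.3) at rank 418 at day 5. Of the 6 other coding genes within 1 Mb, ELAC2 alone was marked in either library, since the annotated span of ZNF18 reaches beyond its promoter and both of its ends lie over 1 kb from that peak.

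SMAD4 lay between marked genes on chromosome 18 (51030213 to 51085042). Upstream, the start of ELAC1, a further tRNA-trimming nuclease, carried the nearest peak, 62.3 kb away without doxycycline with 4 fragments (1.09 to 10.2) and 61.8 kb away at day 5 with 8 (3.45 to 15.8). These are low-ranked peaks, at 3087 of 3472 and 4265 of 6727, and they did not overlap but lay 108 bp apart, with summits 337 bp apart. Neither the upper 50% of each list nor the day 5 list cut to 3472 peaks held them, which put the nearest peak at 113 kb. Past the far end, 113 kb away in both libraries, the start of MEX3C, an RNA-binding ubiquitin ligase, had 22 fragments (13.8 to 33.3) and 31 (21.1 to 44), at ranks 247 and 324. The stretch of 230 kb and 229 kb between these peaks held 3 and 2 whole protein-coding genes, SMAD4 included, and no peak. Within 1 Mb 2 of 10 other coding genes were marked without doxycycline and 5 at day 5, the latter adding MBD1 and CXXC1, which bind methylated and unmethylated CpG sites, and ME2, a mitochondrial malic enzyme.

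KDM6A (chromosome X, 44873188 to 45112779) had its nearest peak past its far end in both libraries, at 367 kb without doxycycline (10 fragments, 4.8 to 18.4, rank 1533) and 74.4 kb at day 5 (5 fragments, 1.62 to 11.7, rank 6342). The nearer one is among the weakest of the day 5 list, and cutting that list to 3472 peaks moved the distance to 333 kb. Neither lay over an annotated promoter. On the other side the nearest peak was at the start of DDX3X, an RNA helicase gene, 3539 kb away without doxycycline, and at the start of MAOA, a monoamine oxidase gene, 1218 kb away at day 5. None of the 6 other coding genes within 1 Mb was marked in either library.

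RNF43 (chromosome 17, minus strand, 58352500 to 58417534) had its nearest peak upstream, at 214 kb without doxycycline with 7 fragments (2.81 to 14.4, rank 2029) and at 100 kb at day 5 with 12 (6.2 to 21, rank 4041). The day 5 peak covered a promoter of MTMR4, a phosphoinositide phosphatase, and the other lay over no annotated promoter. With the day 5 list cut to 3472 peaks its nearest peak was 214 kb away too. Past the far end of RNF43, 345 kb away, SRSF1, a splicing factor gene, carried at its start 23 fragments (14.6 to 34.5) without doxycycline and 31 (21.1 to 44) at day 5, at ranks 463 and 510. Of 28 other coding genes within 1 Mb, 4 were marked without doxycycline (SRSF1, TRIM37, SKA2 and PRR11) and 6 at day 5, with MTMR4 and IGBP1C added.

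GATA6 (chromosome 18, 22169589 to 22202528) lay in a stretch of 1192 kb without a peak in either library. The nearest peak, 429 kb upstream in both, covered the promoter of MIB1, a ubiquitin ligase of Notch ligands, with 6 fragments (2.2 to 13.1, rank 2939) without doxycycline and 11 (5.49 to 19.7, rank 3164) at day 5, and the peaks of the lists overlapped by 381 bp. On the other side, 731 kb away, the promoter of RBBP8, which encodes the DNA end resection factor CtIP, carried 8 fragments (3.45 to 15.8) in each library. Of the 8 other coding genes within 1 Mb, SNRPD1, a core spliceosomal protein gene, was marked without doxycycline, and 5 were marked at day 5, among them SNRPD1, MIB1 and ESCO1, a cohesin acetyltransferase gene.

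TGFBR2 (chromosome 3, 30606356 to 30694142) had the same nearest peak in both libraries, 838 kb past its far end beside STT3B, a catalytic subunit of the oligosaccharyltransferase. It had 15 fragments (8.4 to 24.7) in each, at rank 645 of 3472 and 2294 of 6727. On the upstream side the nearest peak lay 4816 kb away without doxycycline, beside OXSM and NGLY1, and 2257 kb away at day 5, at the start of AZI2. STT3B was the only marked gene of 5 others within 1 Mb in either library.

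CDKN2A (chromosome 9, minus strand, 21967752 to 21995324) was the farthest from any peak in both libraries. Its nearest peak, 2587 kb past the far end, was at the start of RPS6, a ribosomal protein gene, with 9 fragments (4.12 to 17.1, rank 2213) without doxycycline and 11 (5.49 to 19.7, rank 3495) at day 5. Of all protein-coding genes 3.14% lay farther from a peak without doxycycline and 1.1% at day 5. Within the stretch of 7576 kb and 7512 kb around it lay 32 and 30 whole protein-coding genes, CDKN2A included, and none of the 22 other coding genes within 1 Mb was marked. Among these are CDKN2B, which encodes p15INK4b, and MTAP, of the methionine salvage pathway, 2622 kb and 2422 kb from a peak. The peak lists hold no coverage, so the number of copies of this region in these cells was not tested. A deleted region can give no peak, so the lack of peaks here cannot be read as a lack of Myc binding.

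Over all 8 genes together 138 other protein-coding genes lie within 1 Mb of a span. Of these 13 (9.42%) were marked without doxycycline and 28 (20.3%) at day 5, below the 14.4% and 27.4% of all coding genes, with 22 of the 138 belonging to CDKN2A. The difference from all genes was not tested, because neighbours share peaks and chromosomal context. ARID1A had the most peaks within 1 Mb of its start, 6 without doxycycline and 14 at day 5, and CDKN2A had 0 in both. The strongest peak within that distance reached 31 fragments, near SMAD4 and RNF43 at day 5.

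**Figure D2:**
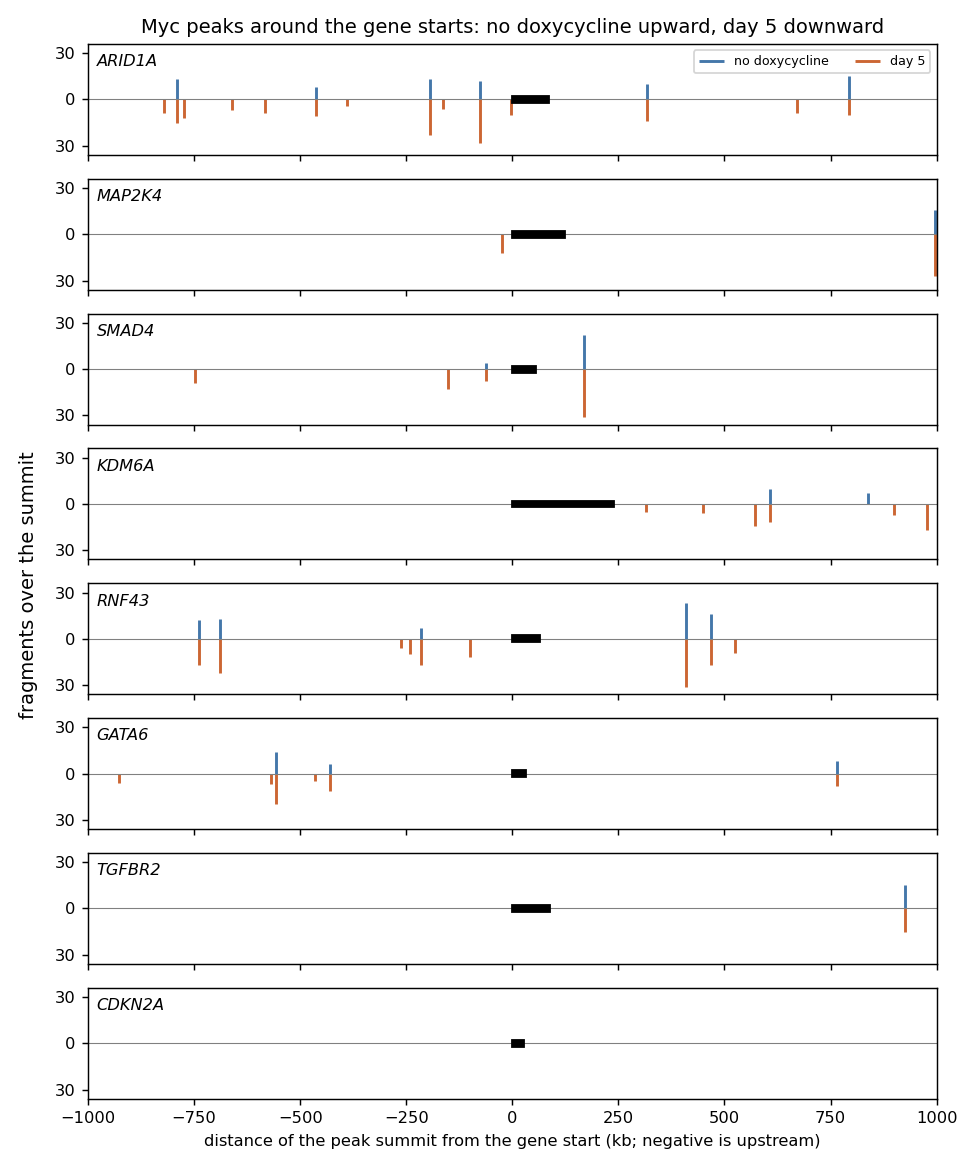
Myc peaks within 1000 kb of the start of each gene, with distance from the start in kb along the gene's direction and the height of each line giving the fragments over the summit, upward without doxycycline and downward at day 5; the black bar is the gene. Every bar is free of peaks, ARID1A has a day 5 line just upstream of its start, and CDKN2A has none in the window.

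To see whether partners of these genes were marked, 192 other genes in 8 lists, 7 for the members' pathways and 1 of other genes recurrently altered in pancreatic cancer, were counted by the same rule. Of these 32 (16.7%) were marked without doxycycline and 60 (31.2%) at day 5, close to the 14.4% and 27.4% of all coding genes. The partners as a whole thus carried Myc peaks about as often as other genes, while the lists ran from 0 to 73.7%. The shares of 14.4% and 27.4% are the ones to read beside each list count below. Cut by rank to 3472 peaks, the day 5 list marked 36 of the 192 (18.8%), beside 15.7% of all coding genes, and this share is the one to read beside each count with equal numbers of peaks below. Fragment numbers are given side by side for the 2 libraries, whose depth differs by an unknown amount, and are not a measure of change.

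For the TGF-beta and SMAD pathway, in which ligands engage paired receptors and SMAD proteins carry the signal, 2 of 30 genes were marked without doxycycline and 4 at day 5. The median distance of the list was 149 kb and 38.1 kb, beside 112 kb and 34.4 kb for all genes. SMAD6, an inhibitory SMAD, had 10 fragments without doxycycline and 9 at day 5. SMAD2, a receptor-activated SMAD and direct partner of SMAD4, had a peak only at day 5 with 15 fragments, as did TGFB3, a ligand, with 9, and SKIL, a co-repressor of SMADs, with 6. TGFB1 had one only without doxycycline, with 5, which ranked 3467 of 3472. That peak lay within the gene, 0.967 kb from its start and so just inside the limit. TGFBR1, the receptor that pairs with TGFBR2, had none and lay 945 kb and 67.6 kb from a peak. The day 5 count was 1 with equal numbers of peaks.

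INK4, cyclin D and RB pathway genes, which govern entry into S phase, were marked in 6 of 20 cases without doxycycline and 11 at day 5, with median distances of 31.9 kb and 0.417 kb. CDK4, a kinase that p16INK4a inhibits, had 13 and 23 fragments. RBL1, the RB relative p107, had 9 and 22. CDKN2D, a relative of CDKN2A, encodes p19INK4d. Its highest-ranked peak within 1 kb had 16 fragments at its start without doxycycline and 27 past its far end, nearer KRI1, at day 5. Another day 5 peak lay closer, 0.138 kb from an end of CDKN2D. CCND3, a D cyclin gene, had 15 at day 5 only, nearer TAF8. With equal numbers of peaks the day 5 count was 6.

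In the Wnt list, 3 of 34 genes were marked without doxycycline and 8 at day 5, at median distances of 120 kb and 66.2 kb. The kinase genes GSK3A, with 31 and 29 fragments, and GSK3B, with 9 and 16, whose products mark beta-catenin for destruction, were in both. ZNRF3, the close relative of RNF43, had a peak only at day 5 with 16 fragments, 0.081 kb from its end, whereas it lay 141 kb from any peak without doxycycline. PORCN, which acylates Wnt ligands, had 6 and 11 at a peak nearer EBP. The day 5 count was 5 with equal numbers of peaks.

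Of 26 other BAF and PBAF subunit genes 7 (26.9%) were marked without doxycycline and 11 (42.3%) at day 5, beside 14.4% and 27.4% of all coding genes. By the gene start alone the counts were 4 and 9. Genes without a known strand, the marked ACTL6A and SMARCC2 among them, could not be counted by that rule. The list lay at median distances of 31.3 kb and 5.86 kb. ACTL6A, the actin-related subunit, had 12 and 35 fragments, BICRAL, of the non-canonical complex, 11 and 25, and SMARCD2 8 and 18. BRD9, a bromodomain subunit, had 18 at day 5 only, and BCL7B and DPF2 had 8 each only without doxycycline. ARID1B, the relative that can replace ARID1A in the complex, was unmarked, 113 kb and 63 kb from a peak.

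Among KMT2 complexes and enzymes of H3K27 methylation, the partners and opponents of KDM6A, 6 of 19 genes were marked without doxycycline and 14 at day 5, a median of 10.2 kb and 0.138 kb away. This was the highest share of any list at day 5, 73.7%, and with equal numbers of peaks, where the share of all coding genes falls to 15.7%, it was 9 of 19. EZH2 and EZH1, the methyltransferases whose mark KDM6A removes, had 23 and 22 fragments at day 5 only. ASH2L, a shared core subunit of the KMT2 complexes, had 19 at day 5 only, and PAXIP1, which sits with KDM6A in the KMT2C and KMT2D complexes, had 8 and 17. SUZ12, the EZH2 partner, had 6 only without doxycycline. KDM6B, the other H3K27 demethylase, had 20 at day 5, at a peak nearer LOC124904106, and lay 2.52 kb from a peak without doxycycline.

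JNK and p38 cascade genes were marked in 3 of 24 cases (12.5%) without doxycycline and 6 (25%) at day 5. These shares are near the 14.4% and 27.4% of all coding genes. Median distances were 80.2 kb and 33.7 kb, and the day 5 count was 3 with equal numbers of peaks. The transcription factors at the end of the cascade were in both libraries, ATF2 with 10 and 20 fragments and JUN with 10 and 15. Of the upstream kinase genes, MAP3K12 had 21 and 27, the day 5 peak being nearer TARBP2. MAP3K11 had 24 at day 5 at a peak 0.839 kb away and nearer PCNX3, and without doxycycline a peak lay 1.1 kb away, just outside the limit. MAP2K7, the other JNK-activating kinase of the MAP2K4 tier, was unmarked and 5.86 kb from a peak in both.

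GATA factors and foregut regulators had no marked gene, 0 of 24 in each library, as GATA6 itself. Of all coding genes 14.4% and 27.4% were marked. The median distance of the list was 296 kb without doxycycline and 246 kb at day 5, the longest of the pathway lists. FOXA3, a forkhead factor, came nearest at day 5, at 1.01 kb, and ELF3, an epithelial ETS factor, nearest without doxycycline, at 1.47 kb. GATA2 lay 4.67 kb and 4.34 kb from a peak.

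Other genes recurrently altered in pancreatic cancer were marked in 5 of 15 cases without doxycycline and 6 at day 5 (4 with equal numbers of peaks), with medians of 48.1 kb and 40.5 kb. RBM10, a splicing regulator on the X chromosome, had 38 and 40 fragments at ranks 59 and 181. ATM, the DNA damage kinase gene, had 17 and 28, USP9X, a deubiquitinase gene, 11 and 15, and SF3B1, a core splicing factor gene, 7 and 12. Of marker genes of other cells, none of 10 acinar and endocrine genes and none of 8 leukocyte and fibroblast genes was marked. Of all coding genes 14.4% were marked without doxycycline and 27.4% at day 5, and lists this short can show 0 at such shares. Of 8 ductal genes only MUC1 was marked, with 13 and 25 fragments at a peak nearer THBS3. Peaks do not measure expression, so these lists do not test the identity of the cells.

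**Figure D3:**
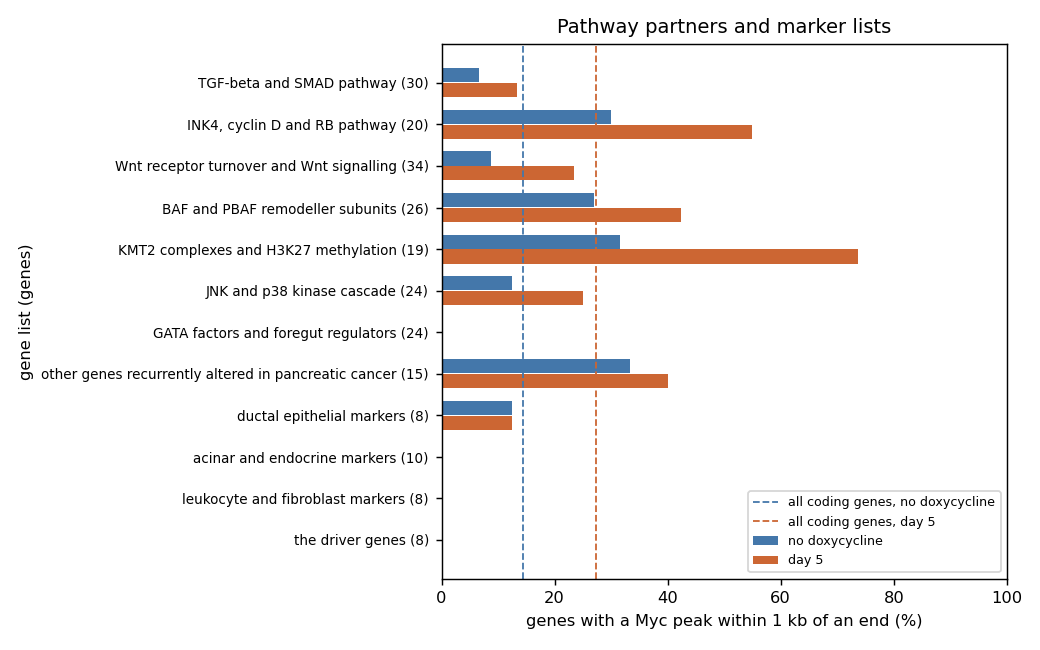
Share of genes (%) in each list marked by a Myc peak, blue without doxycycline and orange at day 5, with the number of genes in brackets and dashed lines for all coding genes (14.4% and 27.4%); each bar is 1 library, so there are no error bars. The 8 driver genes and the GATA and foregut list have no bar in either library, and the KMT2 list reaches 73.7% at day 5.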

How the data were processed

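The 8 genes, the gene lists and the counting rules were chosen with earlier results of these data known. The submitters' processing notes name the build hg38 and the tools MACS2, Bowtie2, Trim Galore and deepTools. Their versions and settings, and any IgG control for the calls, are not stated there. The peak names of each list carry 1 alignment. Peaks off chromosomes 1 to 22, X and Y were left out, which kept 3472 of 3559 without doxycycline and 6727 of 6953 at day 5. For each peak the authors deposited a score (10 times −log10 q, with decimals dropped), the fold enrichment over local background as a ratio, −log10 p and −log10 q, and the summit offset in bp. They are values within a library and were used to rank peaks within a list.

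Fragments over a summit were recovered from the fold and −log10 p, taking fold as (fragments + 1)/(background + 1) and p as a Poisson tail. The recovered whole number gave the deposited −log10 p within 0.001 for 100% of peaks. The recovery and the counting of genes were checked on simulated data. Total reads per library were not used here. Gene spans and promoters came from RefSeq on GRCh38.p14. All 218 list symbols matched, and 15843 of 20037 coding genes had a promoter window, which gives the strand. Python 3.11.15, pandas 2.3.3, scipy 1.17.1 and matplotlib 3.10.9 were used. Genes named from a list are the up to 4 with the highest-ranked day 5 peak and up to 2 marked only without doxycycline, and the genes at the peaks on either side of each member were named too. TGFBR1, ARID1B, KDM6B, MAP2K7, CDKN2B, MTAP, FOXA3, ELF3, GATA2 and other marked neighbours within 1 Mb were chosen after their values were seen. The planned naming of genes with a pattern like a marked member applied to none.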

Additional observations from a re-analysis of the deposited data

How the results depend on the processing

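The count of 0 of 8 genes held in both libraries with gene-end windows of 500 and 2500 bp, the upper 50% of each list by −log10 q, equal numbers of peaks, summits in place of peak edges, the gene start alone, the gene body included, and, added after seeing the data, a peak over a promoter window. Without doxycycline these rules marked from 8.02% (upper 50%) to 17% (gene body included) of all coding genes. The day 5 shares ran from 15.3% (upper 50%) to 31.6% (gene body included). A list of 8 genes can show 0 at such shares, above all under the stricter rules. A window of 10 kb left the count at 0 without doxycycline and made it 1 (ARID1A) at day 5 and 1 in either library, beside 36.6% of all coding genes at day 5. The median distance of the 8 genes without doxycycline, 398 kb, became 462 kb with the upper 50% of the list. At day 5, 87.3 kb became 273 kb with the upper 50%, 273 kb with equal numbers of peaks and 87.5 kb to the summit. CDKN2A moved from 2587 kb to 11295 kb with the upper 50% in both libraries. Marked partner genes at day 5 fell from 60 to 36 of 192 with equal numbers of peaks, while all coding genes fell from 27.4% to 15.7%, by its own construction. Of the 8 nearest peaks 3 overlapped between the lists, and 2 did so by 50% reciprocally. No paired analysis was possible because there is 1 library per condition. Total reads are unknown, which limits any comparison of fragment numbers between the libraries.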

Other observations

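Some genes at the peaks on either side of the 8 members have related roles. They were picked from all such genes after their values were seen, and this was not tested. Both human ELAC genes, ELAC1 beside SMAD4 and ELAC2 beyond MAP2K4, carried a peak at their start in each library, with 4 and 8 fragments for ELAC1 and 16 and 27 for ELAC2. Ribosomal protein genes bounded peak-free stretches from farther away. RPS6 lay 2587 kb below CDKN2A in both libraries, with 9 and 11 fragments. RPL26 lay 3637 kb from MAP2K4 without doxycycline, with 14, and bounded the same stretch of 4633 kb as ELAC2.

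Annotated spans can hide a peak from a rule based on gene ends. The peak nearest GATA6 covered the promoter window of MIB1 in both libraries, yet its summit lay 35448 and 35966 bp from the outer start of the MIB1 span, and MIB1 counted as marked only at day 5, through another peak. The day 5 peak nearest MAP2K4 covered 2 promoter windows of ZNF18 and its summit lay 19801 bp from the nearer end of its span. For the 8 driver genes the gene-end rule and the promoter windows gave the same count of 0.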
